A study of Mus musculus with 24 samples.

Results

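Microglia lacking 3110043O21Rik, the mouse counterpart of C9orf72, were compared between 17 and 3 months of age. The comparison rests on 8 of the 24 bulk RNA-seq libraries of the series, namely the 4 homozygous knockout animals of each age. They were picked by the genotype and age that the table headers and labels give, with no use of measured values. Both groups are C57BL/6J mice homozygous for the knockout allele, and the way in which that allele was generated is not given in the sources used here. The 8 wild-type libraries of the same strain and ages (4 and 4) served as the background of ageing, and heterozygotes entered a single alternative fit. Cells were obtained from papain-digested brains without meninges, by depletion of myelin and then retention of CD11b-positive cells on magnetic beads, per the labels' protocols. Animals are named below by genotype (HOM, WT) and the animal number of the tables.

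Microglia are the resident macrophages of the brain. In the young brain they carry a homeostatic set of surface receptors, among them P2ry12, Tmem119 and Cx3cr1. In old or diseased brain, part of them take up a state called disease-associated, with high Apoe, Spp1, Cst7 and Itgax, or a state with high interferon-stimulated genes. The C9orf72 protein works in a complex with Smcr8 and Wdr41 that acts on small GTPases, endosomes and lysosomes, and it is abundant in myeloid cells.

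The knockout was visible in all 8 libraries. The targeted gene, annotated on the minus strand of chromosome 4 from 35191285 to 35226175 (mm10), had 0.139 ± 0.0918 TPM of its transcript 3110043O21Rik in young homozygotes (SD, n = 4). In old ones it had 0.0360 ± 0.0158 TPM. Wild types held 22.8 ± 2.23 and 14.9 ± 1.48 TPM, and each difference gave p = 0.0286 (exact two-sided permutation test, the smallest p that 4 against 4 can give). Libraries of the old homozygotes were deeper, with 42.4 ± 2.67 against 31.6 ± 1.48 M alignments (exact permutation p = 0.0286). By Y-linked transcripts, 3 of the 4 old and 2 of the 4 young homozygotes were male. The male wild types were WT-7785 (17 months) and WT-8326 (3 months), so the genotypes differed in sex. Wild-type libraries held 21.8 to 28.4 M alignments at 3 months and 16.7 to 35.7 M at 17 months. Over genes, the SD of the log2 difference ran from 0.23 to 0.388 between animals of an age and from 0.446 to 0.7 between animals of different ages. Of the 21 genes of the homeostatic microglia list, which defines the labelled cell type, 20 passed the filter on low values, and their summed level was 64600 to 98200 TPM. Nothing in the labels says whether animals were pooled, and p-values measure the spread between these libraries.

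Between the ages, 5299 of the 11726 genes kept were called (45.2%), with 2975 higher at 17 months (25.4%) and 2324 lower (19.8%). Genes were kept where their level averaged 1 TPM or more across these 8 libraries. They were called at an adjusted p under 0.05 in limma's moderated test of log2(TPM + 1), after each library had been centred on its median. Below, "rose" and "fell" are used of called genes, TPM values are levels as deposited, and a log2 difference is the centred value at 17 minus 3 months. With the further demand of a 2-fold difference, 779 genes rose (6.64%) and 13 fell (0.111%). In centred levels, the 4 old and 4 young libraries did not overlap for 2866 higher (24.4%) and 2274 lower genes (19.4%). The ages stand in separate tables, so age cannot be told apart from anything that was done to all libraries of an age.

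The direction of small differences depended on how the libraries were scaled. The median log2(TPM + 1) of the genes kept was lower in every old homozygote (3.904 to 4.057) than in every young one (4.162 to 4.265). Without centring, the median difference of all genes moved from 0.00 to -0.22, and 1781 genes were called higher and 5480 lower. Centring on the median over all shared genes moved it to -0.42, with 1114 higher and 7753 lower, and quantile normalization moved it to -0.08, with 2233 higher and 3450 lower. The share of called genes that were higher was therefore 56.1%, 24.5%, 12.6% and 39.3% under these 4 scalings. At 2-fold the split was 530 higher and 67 lower without centring, 363 and 271 with centring on all shared genes, and 472 and 52 with quantile normalization. Each group below is given with its counts under the other scalings where those differ in direction. The main counts of every list are to be read beside the 25.4% higher and 19.8% lower of all genes kept. Counts under another scaling are to be read beside those of all 11726 genes kept under the same scaling. With centring on all shared genes most genes kept were called lower (7753 of 11726), so falling members there follow that shift of all genes in part.

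**Figure D1:**
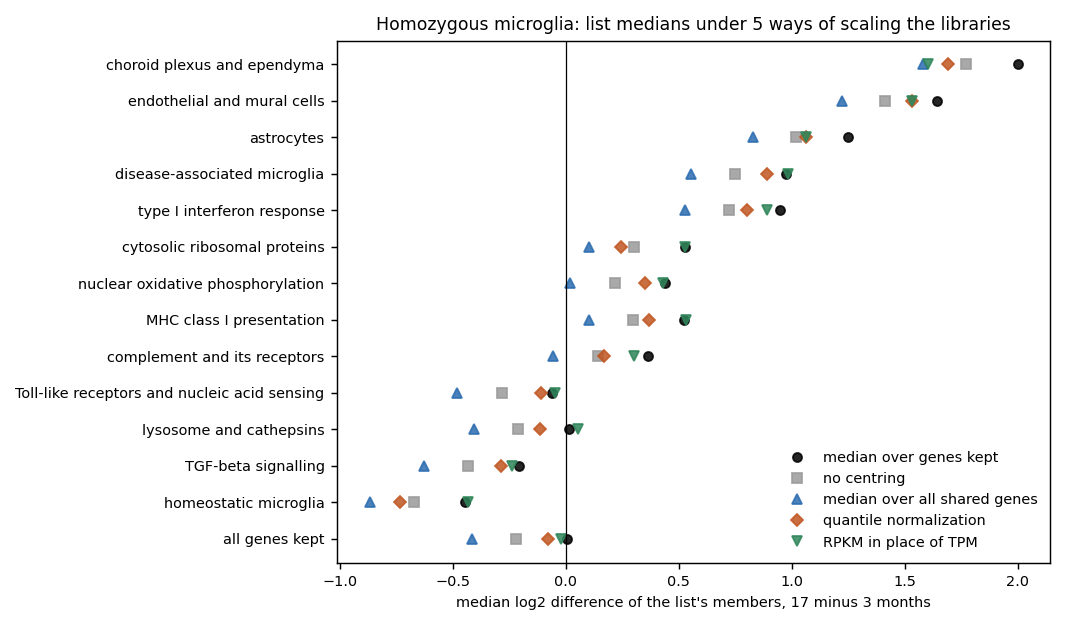
Median log2 difference (17 minus 3 months, horizontal axis) of the members of 13 gene lists and of all genes kept in homozygotes, under 5 ways of scaling; each symbol is a median over genes. Lists of homeostatic, disease-associated, interferon, astrocyte, endothelial and choroid plexus genes stay on their side of 0 under all 5, whereas complement, lysosome and all genes kept cross it.

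Homeostatic microglial genes were lower in old homozygotes. Of 20 members kept, 14 fell and 0 rose, against 19.8% and 25.4% of all genes kept, and the median log2 difference was -0.45. The count of falling members was 19 without centring, 20 with centring on all shared genes, 18 with quantile normalization and 16 in the RPKM tables, but 7 among males alone (3 old and 2 young), where 1419 of all genes were called higher and 538 lower. The remaining 6 members were not called under the main scaling, and limma put 0 members higher at an unadjusted p under 0.05 as well.

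P2ry12 (chromosome 3, 59216272 to 59262871, minus strand), the ADP receptor that steers microglial processes to injury, stood at 2187, 2953, 2392 and 2404 TPM in the young animals and at 1594, 1180, 1001 and 798 TPM in the old ones. Every old library lay below every young one, and the log2 difference was -0.93 ± 0.17 (SE; limma adjusted p = 0.00246). Gpr34 (chromosome X, 13632089 to 13640858, plus strand), a lysophospholipid receptor, had 748, 1457, 908 and 947 TPM in young animals, against 439, 340, 308 and 388 TPM in old animals. Its groups did not overlap either, and with a log2 difference of -1.20 ± 0.18 (limma adjusted p = 0.00112) it fell more than any other member of the list. Tgfbr1 (chromosome 4, 47353222 to 47414931, plus strand) encodes the type I receptor of TGF-beta, the factor that keeps the homeostatic state. It fell from 189 ± 21.98 to 73.2 ± 22.7 TPM, a log2 difference of -1.18 ± 0.18 (limma adjusted p = 0.00114).

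Other falling members were P2ry13 (-0.63), the CSF1 receptor Csf1r (-0.60), the chemokine receptor Cx3cr1 (-0.48) and the microglial transcription factor Sall1 (-0.44). Among males alone Csf1r, Cx3cr1 and Sall1 were not called (adjusted p = 0.0814, 0.0873 and 0.0554). Mertk, a phosphatidylserine receptor on the phagocytic list, fell as well (-0.50). Tmem119 and Siglech, a pair of microglia-restricted surface proteins, were not called under the main scaling. Tmem119 stood at 2474 ± 214 TPM in young and 1837 ± 328 TPM in old animals, with a log2 difference of -0.22 (limma adjusted p = 0.164), and Siglech had a difference of -0.30 (adjusted p = 0.0961). Both were called lower under each of the 3 other scalings, and without HOM-7835 as well (adjusted p = 0.037 and 0.00438).

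The largest decrease among all genes belonged to Gpr165 (chromosome X, 96713441 to 96719388, plus strand), a G protein-coupled receptor. It stood at 27.1, 26.4, 33.0 and 38.9 TPM in the young and at 6.93, 4.57, 4.18 and 3.56 TPM in the old homozygotes. The groups were far apart, with a log2 difference of -2.27 ± 0.16 (limma adjusted p = 2.63e-05). Besides Gpr165 and Gpr34, the genes that met the naming rule for decreases were the interleukin-7 receptor Il7r (14.6 ± 2.38 to 4.94 ± 1.28 TPM), Xlr3b (14.4 ± 3.05 to 5.05 ± 1.66), the GTPase-activating protein Arhgap5 (78.1 ± 18.8 to 30.1 ± 7.85) and the iron regulator Hfe (87.5 ± 3.78 to 60.8 ± 6.25). Of Hfe the TPM and RPKM tables disagreed in size, with log2 differences of -0.30 and -1.10.

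**Figure D2:**
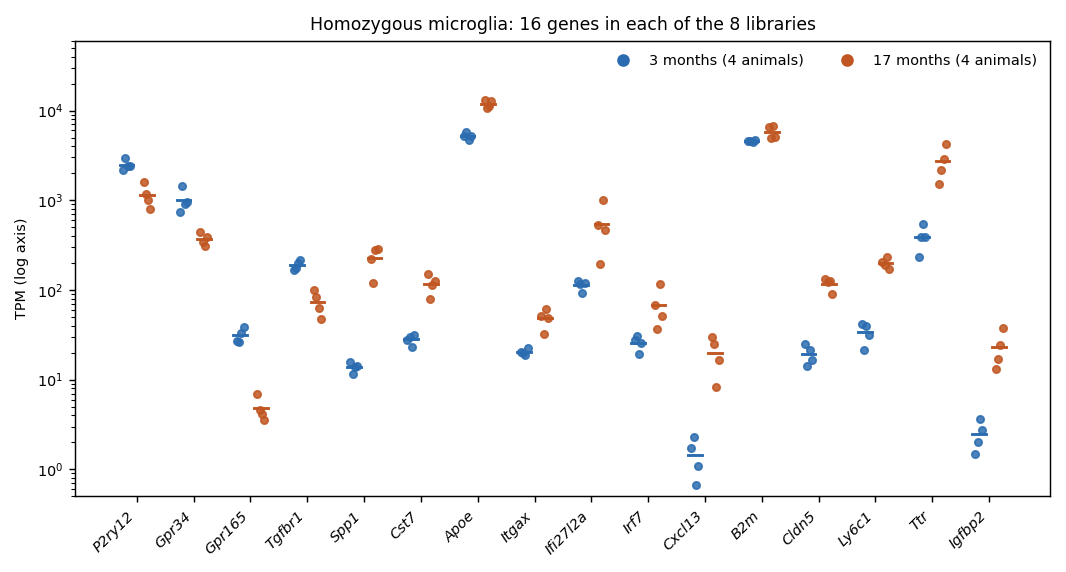
Levels in TPM (log axis) of 16 genes in each of the 8 homozygous libraries, at 3 months (blue) and 17 months (orange); points are animals and bars are means of 4. P2ry12, Gpr34, Gpr165 and Tgfbr1 lie lower in every old animal, and the other 12 genes lie higher in every old animal. In centred levels such separation held for 24.4% of all genes kept upward and 19.4% downward. Some of the 16 genes were named by a rule that required it.

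Disease-associated microglia genes rose together. Of 27 members kept, 22 rose and 0 fell, against 25.4% and 19.8% of all genes kept, with a median log2 difference of 0.97. The rising count was 19 without centring, 15 with centring on all shared genes and 17 with quantile normalization, again with 0 falling. At an unadjusted p under 0.05 limma put 23 higher and 0 lower. The rising count was 22 to 24 without single libraries and 15 among males alone.

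Spp1 (osteopontin, a secreted matrix protein; chromosome 5, 104435118 to 104441050, plus strand) had the largest increase of all genes named. It stood at 15.8, 11.6, 13.8 and 14.1 TPM in the young and at 222, 119, 279 and 289 TPM in the old homozygotes. No old value came near the young ones, and the log2 difference was 4.09 ± 0.26 (limma adjusted p = 1.87e-05). Cst7 (cystatin F, a cathepsin inhibitor; chromosome 2, 150570415 to 150578944, plus strand) rose from 28.0 ± 3.49 to 117 ± 30.3 TPM, a log2 difference of 2.22 ± 0.18. Apoe (chromosome 7, 19696109 to 19699188, minus strand), the lipid carrier, was among the most abundant transcripts in both groups. Young animals had 5220, 5723, 4743 and 5229 TPM, and old animals had 12950, 10570, 11350 and 12880 TPM. All 4 old libraries lay above the young ones, with a log2 difference of 1.41 ± 0.12 (limma adjusted p = 5.92e-05).

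Further rising members were the cholesterol 25-hydroxylase Ch25h (2.37), the glycoprotein Gpnmb (2.095), the fatty acid binding protein Fabp5 (1.65), the integrin Itgax (CD11c, 1.39), the lipoprotein lipase Lpl (1.20), the phagocytic receptor Axl (1.15) and the beta-glucan receptor Clec7a (0.97). Trem2, the receptor that gates this state, showed a small difference that turned with the scaling. It stood at 2626 ± 134 TPM in the young and 2903 ± 229 TPM in the old animals and was called higher (0.37 ± 0.09, limma adjusted p = 0.0113). Its value was 0.14 without centring (adjusted p = 0.148), 0.08 with quantile normalization (0.347) and -0.05 with centring on all shared genes (0.585). Ctsd and Ccl6, also on the list, were not called (log2 differences of 0.16 and 0.21).

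Genes of the type I interferon response rose as well. These genes are switched on by interferon through transcription factors that bind the interferon-stimulated response element in their promoters. Of 32 members kept, 27 rose and 0 fell, against 25.4% and 19.8% of all genes kept. Of the rising ones 14 rose at least 2-fold, and the list's median log2 difference was 0.95. Without centring 24 rose and 2 fell, with centring on all shared genes 18 rose and 3 fell, and with quantile normalization 24 rose and 0 fell.

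The core of that element, GAAA, any 2 bases and GAAA again, on either strand, was looked for in RefSeq promoter windows (GRCm38.p6, 250 bases before to 50 after each start). Of the 22 list members with a window, 13 held it (59.1%), against 3.99% of the 27025 genes of the table and 3.84% of the 9048 kept genes with a window. Neighbouring matches may overlap. Among rising members with a window it was 11 of 19, and among members not called 2 of 3. The 4 stretches below, read 5′ to 3′ in the direction of the gene, come from rising members and show the element in each orientation, in capitals; they lie at chr4:156200819-156200936 (minus strand, Isg15), chr8:71537523-71537642 (minus strand, Bst2), chr19:34583333-34583452 (plus strand, Ifit3) and chr19:34640745-34640864 (plus strand, Ifit1).
Isg15: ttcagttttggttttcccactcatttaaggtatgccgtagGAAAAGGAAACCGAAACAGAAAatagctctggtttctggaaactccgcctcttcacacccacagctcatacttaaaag
Bst2: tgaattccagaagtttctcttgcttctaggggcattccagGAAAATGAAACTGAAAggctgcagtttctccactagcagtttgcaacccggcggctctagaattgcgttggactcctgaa
Ifit3: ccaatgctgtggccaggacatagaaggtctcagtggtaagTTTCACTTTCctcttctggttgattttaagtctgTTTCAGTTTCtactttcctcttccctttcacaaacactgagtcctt
Ifit1: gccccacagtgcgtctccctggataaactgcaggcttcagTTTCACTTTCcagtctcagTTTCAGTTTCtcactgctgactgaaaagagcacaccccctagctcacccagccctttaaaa
Isg15 held 3 overlapping matches, Bst2 2 overlapping ones, and Ifit3 and Ifit1 2 separate ones on the opposite strand. A match describes these letters only.

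Isg15, a ubiquitin-like protein, stood at 21.5, 18.7, 16.03 and 23.3 TPM in young and at 49.9, 36.6, 69.6 and 62.4 TPM in old homozygotes. The groups did not overlap, and the log2 difference was 1.61 ± 0.20 (limma adjusted p = 0.000409). Bst2 (tetherin) rose from 277 ± 30.5 to 462 ± 51.3 TPM (0.96), Ifit3 from 20.3 ± 2.84 to 40.1 ± 10.4 (1.14) and Ifit1 from 3.07 ± 0.490 to 5.47 ± 1.495 (0.87). Ifi27l2a (chromosome 12, 103442167 to 103443680, minus strand) had the largest difference of the list, 2.27 ± 0.40 (limma adjusted p = 0.00207). Its levels were 127, 117, 93.4 and 118 TPM in young animals, against 528, 197, 1012 and 463 TPM in old ones, with no overlap.

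The old animals differed widely among themselves in these genes, with HOM-7899 highest and HOM-7893 lowest. The summed TPM of the list was 970 to 1190 in the young animals and 2250, 1449, 3516 and 2130 in HOM-7835, HOM-7893, HOM-7899 and HOM-7901. Without HOM-7899, 24 members rose and the median was 0.83. The smallest count without a single library was 20, without HOM-8286. Irf7, the master factor of the response (log2 difference 1.49), and the antiviral membrane protein Ifitm3 (1.51) followed the same order of animals. Among males alone (3 old and 2 young), 11 of the 32 members were called, all higher.

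Antigen presentation genes rose in part. Of 21 MHC class I genes kept, 15 rose and 2 fell, with a median of 0.52. H2-Q7 rose from 19.5 ± 5.48 to 60.4 ± 27.7 TPM (1.73), H2-D1 from 939 ± 69.3 to 1864 ± 445 TPM (1.18) and H2-K1 from 735 ± 27.0 to 1167 ± 261 TPM (0.87). These class I genes have close relatives whose reads the counting may have split. Their light chain B2m rose (0.56), but was not called with quantile normalization (limma adjusted p = 0.191) or centring on all shared genes (0.292). Its call was also lost with no filter on low values (0.0556) and among males alone (0.0843). The peptide-trimming enzyme Erap1 fell (-0.53). With centring on all shared genes the class I list gave 6 rising and 6 falling members, where 1114 of all 11726 genes kept were higher and 7753 lower.

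Of 12 MHC class II genes kept, 6 rose and 1 fell. The invariant chain Cd74 (0.70), H2-Ab1 (0.86) and H2-Aa (0.60) were among the rising ones, but Cd74 was not called with quantile normalization (adjusted p = 0.0942) or centring on all shared genes (0.099). The call of H2-Aa was lost under each of the 3 other scalings (0.0998 without centring, 0.244 with quantile normalization and 0.359 with centring on all shared genes), and without HOM-7835, HOM-7893, HOM-8286 or HOM-8287 (adjusted p = 0.0548, 0.0513, 0.0512 and 0.053). Centring on all shared genes gave 1 rising and 4 falling members of this list, beside 1114 higher and 7753 lower of all 11726 genes kept.

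Cytokine and chemokine genes were mixed. Among 25 inflammatory cytokine and NF-kB genes kept, 11 rose and 5 fell, and among 17 chemokines 6 rose and 1 fell (0 fell without HOM-8282, HOM-8285 or HOM-8287). With centring on all shared genes the first list gave 7 and 10. Falling members of the cytokine list numbered 2 or 3 without any single library other than HOM-8285.

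Tnf rose from 40.5 ± 12.5 to 87.2 ± 9.40 TPM (1.37) and Il1b from 97.8 ± 40.5 to 190 ± 34.6 TPM (1.27). Il1a (-0.40) and the inflammasome sensor Nlrp3 (-0.51) stood lower, with limma adjusted p = 0.0288 and 0.0498. Neither call held without each single library: Il1a kept it without HOM-7893 or HOM-8285 only, and Nlrp3 without HOM-7901 or HOM-8285 only. Cxcl13, the B-cell attracting chemokine (chromosome 5, 95956951 to 95961068, plus strand), stood at 1.74, 2.31, 0.673 and 1.09 TPM in the young and at 30.1, 24.96, 8.28 and 16.6 TPM in the old animals, a log2 difference of 3.23 ± 0.36 (limma adjusted p = 0.000248). Its groups did not overlap. Ccl3 was not called (1076 ± 499 against 1331 ± 257 TPM), with HOM-8285 alone at 414 TPM among the young.

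In the complement list, 8 of 18 members rose and 2 fell. C3 rose from 8.60 ± 2.29 to 19.1 ± 6.46 TPM (1.27) and C4b from 36.7 ± 5.31 to 67.2 ± 15.7 TPM (1.06). C1qa, which encodes a chain of the C1q recognition molecule, stood at 9855 ± 644 and 10560 ± 1071 TPM and was not called (0.32, adjusted p = 0.063). It was called higher by limma without HOM-7893 (adjusted p = 0.0346) or HOM-8282 (0.0494). The same held in the RPKM tables (0.0421), with a filter at 5 TPM (0.0356) and with all 24 libraries in the fit (0.021). The list's median was 0.37 but -0.06 with centring on all shared genes, where 6 rose and 5 fell.

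Among 28 Toll-like receptor and nucleic acid sensing genes kept, 10 fell and 5 rose, and the median was -0.06. The falling members included the endosomal RNA receptors Tlr7 (150 ± 19.3 to 70.2 ± 3.21 TPM, -0.86) and Tlr3 (44.8 ± 5.70 to 23.8 ± 2.59, -0.66), the LPS receptor Tlr4 (23.6 ± 4.56 to 12.96 ± 0.773, -0.57) and the DNA receptor Tlr9 (-0.44). The call of Tlr9 held without HOM-7835 only, and its adjusted p was 0.0554 to 0.0908 without each other library. The count of falling members was 17 without centring, 22 with centring on all shared genes and 13 with quantile normalization. Of all 11726 genes kept, 5480, 7753 and 3450 were lower under these scalings.

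Genes of the lysosome, the compartment tied to C9orf72, moved little as a list. Of 38 members kept, 5 rose (13.2%) and 8 fell (21.1%), against 25.4% and 19.8% of all genes kept, with a median of 0.01. With centring on all shared genes, 0 rose and 32 fell, where 1114 of all 11726 genes kept were higher and 7753 lower. Without HOM-8286 or HOM-8287 the rising members numbered 3. Ctss and Ctsd, proteases of this compartment, were not called (0.03 and 0.16). Ctss was lower with centring on all shared genes (-0.39, adjusted p = 0.00588). The membrane protein Lamp2 fell from 294 ± 30.3 to 181 ± 29.7 TPM (-0.48), and the cholesterol carrier Npc2 rose (0.52) except with centring on all shared genes (0.09).

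Of the partners of C9orf72, Smcr8 fell from 24.3 ± 1.47 to 17.0 ± 1.798 TPM (-0.27 ± 0.07, limma adjusted p = 0.0113), but not in the fit of all 24 libraries (adjusted p = 0.062). Wdr41 was not called (32.9 ± 3.89 and 25.6 ± 0.519 TPM, -0.12, adjusted p = 0.246), although it was lower without centring (adjusted p = 0.00568). In the list of this complex and endosomal GTPases 4 of 27 members rose (14.8%) and 5 fell (18.5%). In the autophagy list 6 of 26 rose and 6 fell (23.1% each), against 25.4% higher and 19.8% lower of all genes kept. With centring on all shared genes these lists held 1 rising and 23 falling, and 0 rising and 21 falling members. Of all 11726 genes kept, 1114 were higher and 7753 lower under that scaling.

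Genes for the ribosome and the respiratory chain rose in large numbers and by small amounts. Of 55 cytosolic ribosomal protein genes kept, 51 rose and 0 fell (median 0.53), among them Rplp1 (0.68), Rpl38 (0.82) and Rps29 (0.53). Rplp1 and Rps29 were not called with quantile normalization (adjusted p = 0.249 and 0.183) or centring on all shared genes (0.0807 and 0.382). Many have processed pseudogenes that can share reads. Of 40 nuclear-encoded genes of oxidative phosphorylation, 29 rose and 1 fell (median 0.44). Cox6a1 rose from 376 ± 12.4 to 680 ± 102 TPM (1.07), and the falling gene was Ndufs1 of complex I (-0.22). Without centring these counts were 40 and 0, and 20 and 5. With centring on all shared genes they were 7 and 5, and 12 and 13.

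Further metabolic lists held more rising than falling members. They were 15 rising and 3 falling of 22 glycolysis genes, 15 and 0 of 25 cholesterol synthesis genes, and 10 and 5 of 23 genes of lipid efflux and storage. The sterol exporter Abca1 was among the falling ones (-0.44, adjusted p = 0.0433), and was not called without HOM-7899, HOM-7901, HOM-8285, HOM-8286 or HOM-8287 (0.0602 to 0.109). With centring on all shared genes they were 4 and 7, 3 and 10, and 7 and 10. Falling members of the lipid list numbered 2 without HOM-7899, HOM-7901 or HOM-8286 and 3 without HOM-8282 or HOM-8287.

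Cell cycle genes gave 17 rising and 0 falling of 30 members, but 11 rising without HOM-7835 or HOM-7893, 10 without HOM-8282, and 0 rising and 4 falling with centring on all shared genes. In the senescence and DNA damage list 9 of 18 rose and 2 fell, 1 without HOM-7835, HOM-7899, HOM-7901 or HOM-8287. Its largest difference was that of Igfbp2 (2.96), which stands on the choroid plexus list as well. The members Cdkn2a, the p16 and p19 locus (0.510 ± 0.348 to 2.90 ± 0.930 TPM, 1.59), and Cdkn1a, p21 (21.01 ± 2.92 to 34.3 ± 3.62 TPM, 0.91), both rose. Cdkn2a averaged under 1 TPM in the young animals, so it passed the filter on low values through the old group only. Falling members outnumbered rising ones in the unfolded protein response (7 against 2 of 24), where the chaperone Hspa5 fell (-0.48) and 1 rose without any single library other than HOM-7835 or HOM-7893, and in TGF-beta signalling (9 against 5 of 19, but 5 and 5 without HOM-8286). The other program lists held 6 rising and 3 falling of 22 phagocytic receptors, 6 and 3 of 29 immediate early genes, 4 and 2 of 14 glucocorticoid genes, 3 and 4 of 17 clock genes, and 2 and 1 of 7 Ms4a genes. In percent these were 27.3 and 13.6, 20.7 and 10.3, 28.6 and 14.3, 17.6 and 23.5, and 28.6 and 14.3. Over all genes kept the shares were 25.4% higher and 19.8% lower. Rising immediate early genes numbered 2 without HOM-7893, HOM-7899 or HOM-7901 and 3 without HOM-8285 or HOM-8287, and 5 fell without HOM-7893. Without centring, 1 of them rose and 11 fell. Rising clock genes numbered 1 without HOM-7899 or HOM-7901. Rising Ms4a genes numbered 0 without HOM-8286 and 1 without HOM-7835, HOM-8282 or HOM-8287, and 2 fell without HOM-7901. With centring on all shared genes, 1114 of all 11726 genes kept were higher and 7753 lower, and several of these lists held more falling than rising members. The counts were 2 rising and 13 falling phagocytic receptors, 4 and 8 senescence genes, 4 and 7 glucocorticoid genes, 1 and 12 clock genes, and 0 and 2 Ms4a genes.

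**Figure D3:**
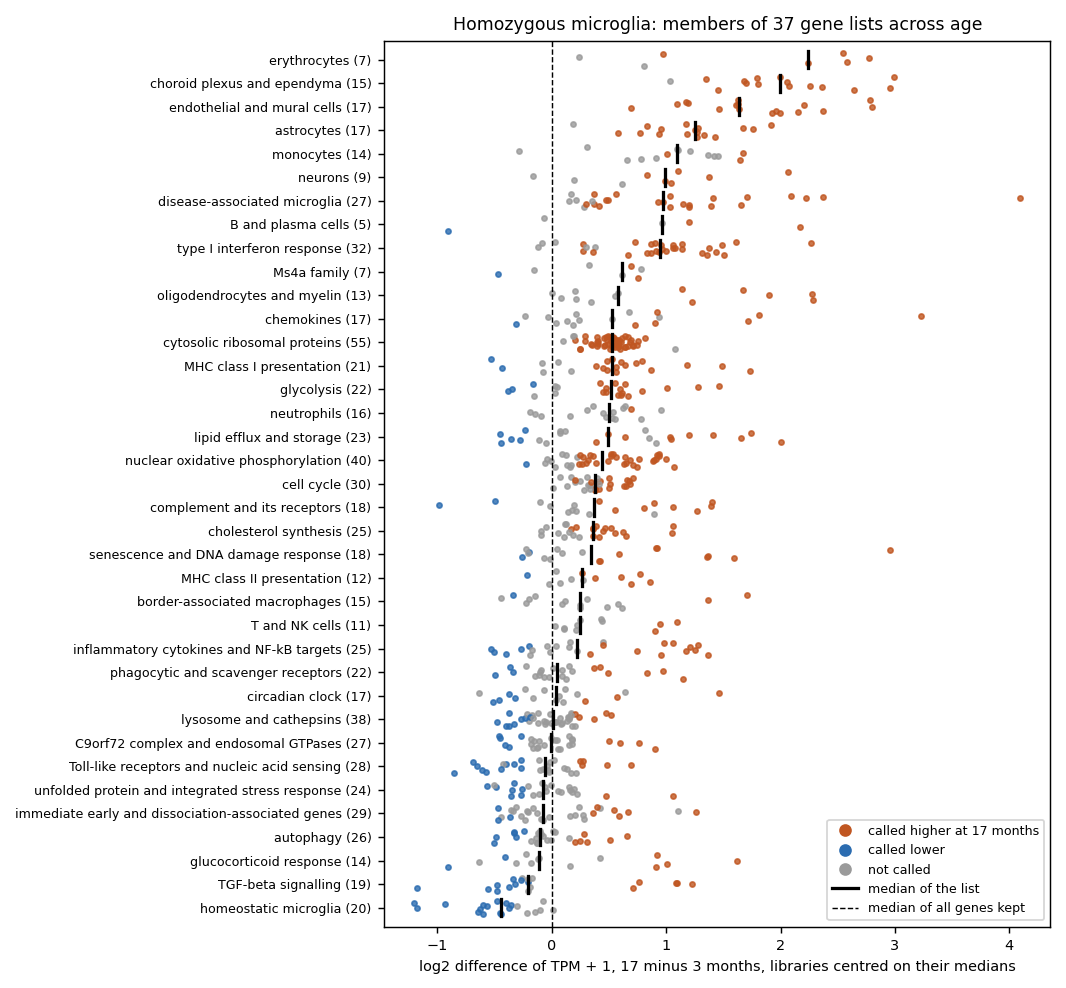
Log2 difference (17 minus 3 months, horizontal axis) of each kept member of 37 gene lists in homozygotes, with the number kept in parentheses; points are genes (orange called higher, blue called lower, grey not called), bars are list medians and the dashed line is the median of all genes kept. The homeostatic list lies lowest at a median of -0.45, and the lists of erythrocyte, choroid plexus and endothelial genes lie highest at 2.24, 2.00 and 1.64.

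Transcripts of cells other than microglia were also higher in old homozygotes, and several led the ranking of all genes. In these bulk samples, more cells of a type and more RNA per cell cannot be told apart. Of 17 endothelial and mural genes kept, 17 rose (median 1.64), and of 15 choroid plexus and ependymal genes 14 rose (median 2.00). Of 17 astrocyte genes 16 rose (median 1.25). The genes listed numbered 20, 17 and 17. Because the filter on low values averages both ages, members low in the young animals could pass it through the old group only. Such members could hardly be called lower, and their number was not counted, here or in the other cell type lists below. None of these 3 lists held a falling member, at an adjusted or an unadjusted p under 0.05 in limma, and under the 3 other scalings the rising counts were 16 to 17, 12 to 14 and 12 to 14, with 1 falling astrocyte gene with centring on all shared genes.

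Cldn5, the tight junction claudin of brain endothelium (chromosome 16, 18776847 to 18778262, plus strand), stood at 24.8, 14.0, 21.6 and 16.7 TPM in the young and at 131, 123, 125 and 89.8 TPM in the old animals (2.79 ± 0.18, limma adjusted p = 1.87e-05). Ly6c1, another endothelial marker, went from 33.6 ± 9.09 to 201 ± 27.4 TPM. Ttr (transthyretin, the main secretory product of the choroid plexus; chromosome 18, 20665280 to 20674321, plus strand) had 233, 385, 545 and 384 TPM in the young, and 1508, 2186, 2866 and 4288 TPM in the old animals (2.99 ± 0.34, limma adjusted p = 0.000284). The groups of all 3 genes were separate.

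The 15 genes named for increases, in order of size, were Spp1, Cox8b, Gng13, Cxcl13, Ttr, Igfbp2, Ugt1a6b, Mgp, Igfbp7, Rcn3, Ly6c1, Cldn5, Pcp4l1, Cxcl12 and Wfdc2. Their log2 differences ran from 4.09 to 2.66. Mgp (matrix Gla protein) rose from 13.05 ± 3.88 to 88.2 ± 9.20 TPM, Igfbp7 from 8.78 ± 2.66 to 56.9 ± 4.10 TPM, and the chemokine Cxcl12 from 4.79 ± 1.02 to 32.0 ± 9.84 TPM. Rcn3 was listed near 0 TPM in the 4 young animals and at 5.06 ± 0.296 TPM in the old ones, and its difference was 2.82 in TPM but 1.09 in RPKM. In wild types Rcn3 was near 0 in some animals of either age. It stood at 7.006, 0, 3.041 and 0.0002045 TPM in young and at 0, 0.0002247, 0.000209 and 7.517 TPM in old wild types. Gng13 and Ugt1a6b were each listed at 0 in 1 young animal. Cox8b, Rcn3 and Wfdc2 averaged under 1 TPM in the young, so they passed the filter on low values through the old group only.

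Summed over the lists, endothelial and mural transcripts were at 654 to 773 TPM in young and 1590 to 1930 TPM in old homozygotes. Choroid plexus transcripts were at 245 to 575 and 1590 to 4520 TPM, and astrocyte transcripts at 211 to 273 and 364 to 629 TPM. Homeostatic microglial transcripts were at 85600 to 98200 TPM in the young and 64600 to 79400 TPM in the old. No marker list had a gene at 0 in all 8 libraries. These sums move with age beside the microglial lists above, and their part in those results was not tested.

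Blood and myelin markers were less even. In the erythrocyte list 5 of 7 genes rose (median 2.24), but 2 without HOM-7893 and 3 without HOM-8282, HOM-8286 or HOM-8287. The sum was 2090 TPM in HOM-7899 against 137.3 to 492.5 TPM in the other old animals. Of 14 monocyte genes 3 rose, 5 without HOM-7893 and 6 without HOM-8282. The sum of HOM-7899 (5167 TPM) was again the highest, against 3016 to 3534 TPM in the other old and 1748 to 2520 TPM in the young animals. The angiotensin-converting enzyme Ace stood at 101 TPM in HOM-7899 and at 15.1 to 26.5 TPM in the other old animals, and its call (1.65, adjusted p = 0.0482) was lost without that library (1.07, 0.0785) and without HOM-7901, HOM-8285, HOM-8286 or HOM-8287 (0.085 to 0.122). It was also lost without centring (0.0541) and with centring on all shared genes (0.0749). HOM-7899 was also the highest library for the interferon list, and the part of the blood markers in that was not tested. Of 13 oligodendrocyte genes 6 rose, with Mbp at 343 ± 115 and 1124 ± 471 TPM (1.90), and of 9 neuronal genes 6 rose. Of 3 oligodendrocyte precursor genes 3 rose, but 1 without HOM-7899. Of the 11 precursor and 20 neuronal genes listed, only these 3 and 9 were kept. The summed precursor list was at 6.39 to 8.15 TPM in the young and 7.55 to 14 TPM in the old animals. Kept members of such low lists could pass the filter through the old group, so these counts say little about the lists.

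Lists of other immune cells are short, and their counts stand beside 25.4% higher and 19.8% lower of all genes kept. Of 15 genes of border-associated macrophages 2 rose and 1 fell. Without HOM-7899, 6 rose. Without HOM-7901, 2 fell, and without HOM-7835 or any single young library 0 fell. Of 16 neutrophil genes 1 rose and 0 fell (0 rose without HOM-7835 or HOM-7893, 4 without HOM-7901 and 2 without HOM-8285). Among 11 T and NK cell genes 3 rose (1 without HOM-8286 or HOM-8287), and among 5 B and plasma cell genes 2 rose and 1 fell (1 rose without HOM-7899, HOM-8282 or HOM-8286). Under centring on all shared genes, 2 rose and 5 fell of the border-associated macrophage genes, 0 and 1 of the neutrophil genes, and 1 and 2 of the B and plasma cell genes. Of all 11726 genes kept, that scaling put 1114 higher and 7753 lower.

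**Figure D4:**
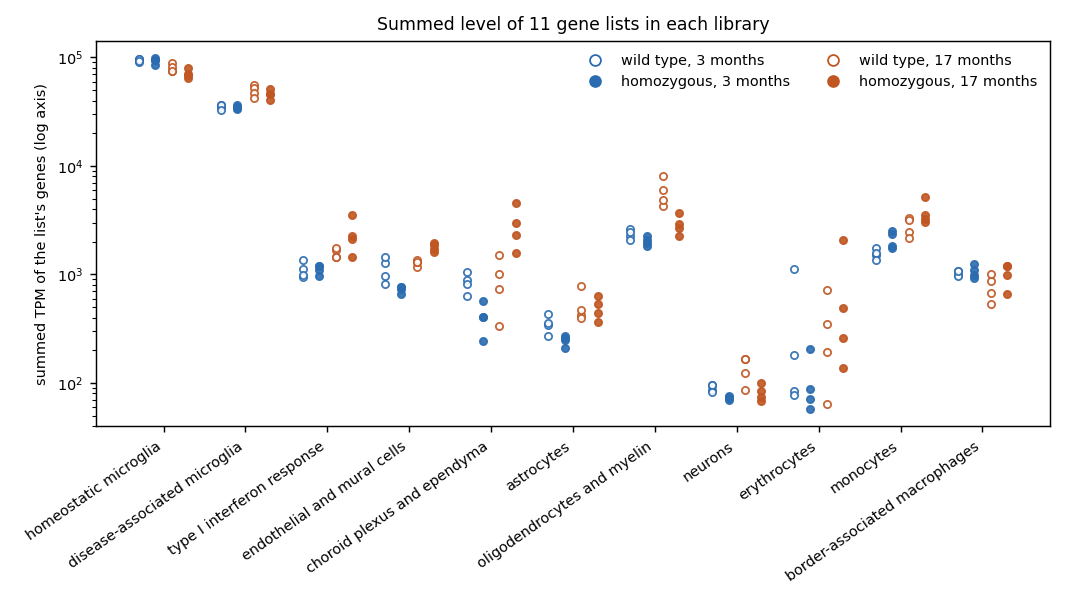
Summed TPM (log axis) of 11 gene lists in each library, by genotype (open, wild type; filled, homozygous) and age (blue, 3 months; orange, 17 months); each point is an animal. Endothelial and choroid plexus sums of the old homozygotes (1590 to 1930 and 1590 to 4520 TPM) lie above those of the young homozygotes (654 to 773 and 245 to 575 TPM) and of the old wild types (1170 to 1360 and 332 to 1500 TPM).

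To see how far homozygotes aged differently from wild types, the age differences of both genotypes were subtracted in 1 model of 16 libraries. An offset of a whole table cancels in this contrast. Of 11747 genes tested, 1187 were called (10.1%), with the age difference higher in homozygotes for 401 (3.41%) and lower for 786 (6.69%). Direction depended on the scaling here too: without centring the counts were 1120 higher and 127 lower, with centring on all shared genes 221 and 830, and with quantile normalization 480 and 469. The total fell to 596 without HOM-7899, 702 without HOM-7893, 747 without HOM-8286, 781 without WT-7943, 600 without WT-8322 and 702 without WT-8323. A fit with the heterozygotes, which adds their spread, gave 479, and a sex term in the model gave 1382.

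**Figure D5:**
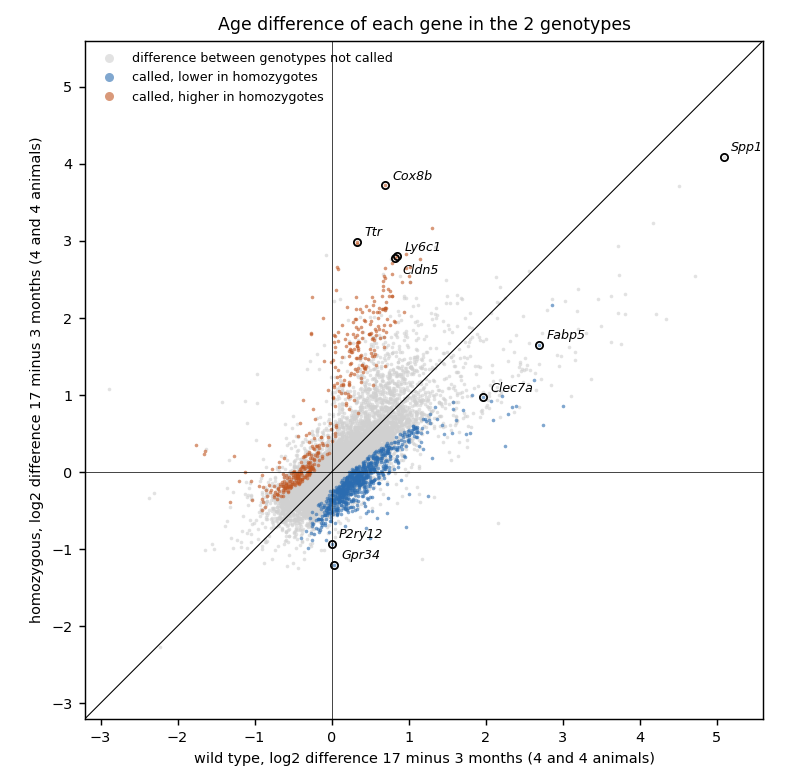
Age difference (log2, 17 minus 3 months) of each gene in wild types (horizontal axis) and homozygotes (vertical axis), 4 and 4 animals each; points are genes, orange where the age difference was called higher in homozygotes, blue where it was called lower, grey where neither, and the line marks equality. Ttr, Cldn5, Ly6c1 and Cox8b lie above the line, P2ry12, Gpr34, Clec7a and Fabp5 below it, and Spp1 (4.09 and 5.09) was not called.

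Several of the largest positive values belonged to genes of the choroid plexus list (Ttr, Igfbp2, Folr1, Clic6 and Kl) and the endothelial list (Cldn5 and Ly6c1). By the naming rule the 10 largest were Cox8b (3.02), Ttr (2.66), Igfbp2 (2.63), Enpp2 (2.53), Folr1 (2.30), Clic6 (2.11), Kl (2.07), Cldn5 (1.96), Ltbp4 (1.96) and Ly6c1 (1.95). Of the lists, 13 of 17 endothelial and 9 of 15 choroid plexus genes were called higher and 0 lower, against 3.41% of all genes. These counts were 12 to 16 and 8 to 13 under the other scalings, but 1 and 3 in the fit with the heterozygotes, where Cldn5 had adjusted p = 0.0873 and Ttr 0.0591. Of these 10 genes, Cox8b and Igfbp2 kept their call in that fit. Without WT-8322 the endothelial count was 8, and Kl lost its call with quantile normalization (adjusted p = 0.054) and without each of 10 of the 16 libraries.

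In wild types the levels of both leading markers lay closer together. Ttr stood at 800 ± 166 TPM in young and 854 ± 471 TPM in old wild types, and Cldn5 at 57.7 ± 31.6 and 68.9 ± 4.97 TPM. The summed endothelial list was 813 to 1460 TPM in young wild types, above every young homozygote, and 1170 to 1360 TPM in old ones, below every old homozygote.

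Homeostatic receptors differed in the other direction under the main scaling. The age difference of Gpr34 was -1.20 in homozygotes and 0.03 in wild types (867 ± 245 to 653 ± 86.2 TPM), a gap of -1.23 ± 0.28 (limma adjusted p = 0.0163). For P2ry12 the gap was -0.93 ± 0.23 (adjusted p = 0.0225), with wild types at 2313 ± 418 and 1739 ± 325 TPM. Of the 20 homeostatic genes 6 were called lower, against 6.69% of all genes, and 0 higher. Among the others were P2ry13 (-0.62) and Serpine2 (-0.43). The count was 1 without centring, 5 with centring on all shared genes, 0 with quantile normalization and 7 in RPKM, and it was 3 without HOM-7899. P2ry12 had adjusted p = 0.0721 without centring, 0.15 with quantile normalization, 0.0508 without HOM-7899 and 0.0509 without WT-8322. P2ry13 had 0.113 without centring and 0.301 with quantile normalization. Gpr34 missed the threshold with quantile normalization only (0.0635). Gpr165, whose age difference was -2.27 in homozygotes and -2.23 in wild types, had a gap of -0.04 ± 0.21.

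Of the 27 disease-associated genes, 5 were called with a smaller age difference in homozygotes than in wild types, and 0 with a larger one, against 6.69% and 3.41% of all genes. They were Clec7a (0.97 against 1.96 in wild types, gap -0.99, adjusted p = 0.0172), Fabp5 (-1.04), Ccl6 (-0.72), Cd9 (-0.59) and B2m (-0.50). The count was 2 without centring, 9 with centring on all shared genes and 3 with quantile normalization, and 3 without HOM-7893, HOM-8287, WT-7783 or WT-8323. B2m lost its call without centring (0.141), with quantile normalization (0.673) and without each of most single libraries, and Fabp5 without HOM-7893, HOM-7899, HOM-8285, HOM-8287, WT-7783 or WT-8323 (adjusted p = 0.0507 to 0.0626) and without centring (0.0544). The gaps of Spp1 (-0.996, adjusted p = 0.141), Cst7 (-0.81, 0.0731), Lpl (-0.99, 0.0536) and Apoe (-0.31, 0.337) were not called, although Cst7 was called without HOM-7835 (0.0419) or WT-7785 (0.0226) and Lpl without HOM-7901, WT-7943, WT-7785 or WT-8326.

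Of 32 interferon genes limma called 0 in either direction (median gap 0.22), against 3.41% higher and 6.69% lower of all genes. At an unadjusted p under 0.05, 3 were higher and 1 lower. Ifi27l2a had a gap of 0.59 ± 0.52. Without centring 2 were called higher, and without HOM-7835, HOM-7893, WT-7782 or WT-8325, 1 was. In sum, old wild types held 1440 to 1740 TPM and old homozygotes 1450 to 3520 TPM, ranges that overlapped.

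Other genes with a negative gap, homozygotes minus wild types, included the cathepsin Ctss (-0.72 ± 0.12, adjusted p = 0.0066), Lamp2 (-0.67), Tlr7 (-0.45), Tlr3 (-0.54), Erap1 (-0.48) and the monocyte attractant Ccl12 (-1.12). The age differences behind these gaps had different signs. Tlr7 was at -0.86 in homozygotes and -0.40 in wild types, Tlr3 at -0.66 and -0.12, and Erap1 at -0.53 and -0.05. Lamp2 was at -0.48 and 0.19, Ctss at 0.03 and 0.75, and Ccl12 at 0.19 and 1.31. Ctss stood at 9081 ± 405 and 11455 ± 525 TPM in young and old wild types against 10052 ± 339 and 8826 ± 869 TPM in homozygotes. Ctss kept its call under every scaling but quantile normalization (0.0514). Tlr7, Tlr3 and Erap1 lost theirs without centring (0.229, 0.154 and 0.232), Tlr7 with quantile normalization too (0.158). Tlr7 was also lost without HOM-7899 (0.0544), HOM-7893 (0.0521) or WT-8322 (0.0571), Tlr3 without HOM-7899 (0.0506) and Erap1 without WT-8322 (0.0503). Of 38 lysosomal genes 10 were called lower and 1 higher, against 6.69% and 3.41% of all genes. These counts were 2 and 3 without centring and 2 and 2 with quantile normalization. Of 55 ribosomal protein genes 30 were called lower, against 6.69% of all genes, with a median age difference of 0.53 in homozygotes and 0.98 in wild types. That count was 13 without centring or with quantile normalization, 9 in the fit with the heterozygotes and 11 to 36 without single libraries, under 20 for HOM-7893, HOM-7899, HOM-8282, HOM-8286, WT-7783, WT-7943, WT-8322 and WT-8323.

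The genes with the largest negative gaps by the naming rule included Stmn4 (-2.13), Rpl22l1 (-1.68), Tmsb15l (-1.56), Pex5l (-1.53), Pcp4 (-1.53), Sh3gl3 (-1.49), Ppp1r14a (-1.43), Svip (-1.42) and Hltf (-1.36). Summed oligodendrocyte transcripts were at 4260 to 8090 TPM in old wild types and 2260 to 3670 TPM in old homozygotes. Of the 15 oligodendrocyte genes tested, the gap was called lower for 2 and higher for 1, against 6.69% and 3.41% of all genes. In the fit with the heterozygotes it was called lower for 1 and higher for 0. Of the genes named here, Rpl22l1 and Tmsb15l kept their call without each single library, and the others lost it without HOM-7899, among other libraries. Hltf (0.0507) and Pcp4 (0.0533) also lost it with quantile normalization, and Hltf without centring (0.0835).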

How the data were processed

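Bulk RNA-seq of CD11b-selected brain cells was deposited as 1 TPM and 1 RPKM table per age. The TPM values were deposited per gene by the authors, and the submitters' processing notes name Salmon 0.8.2. The RPKM values were deposited by the authors in separate tables, and the same notes name TopHat2 2.1.1, Partek 7.17.0918 and DESeq2, with the build mm10. Whether counting used strand is not given in the sources used here. Of the 24 libraries, 16 entered the comparisons and the heterozygotes (headed hemi in the tables) entered 1 alternative. The HOM libraries held 30.6 to 46.4 M alignments, and their listed TPM summed to 80.4 to 88.8% of the full TPM scale.

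Columns were joined by gene symbol over 20636 shared genes, transformed as log2(TPM + 1), filtered at a mean of 1 TPM and centred on each library's median over the genes kept. limma 3.58.1 (R 4.3.3; lmFit, eBayes with trend) gave Benjamini-Hochberg adjusted p-values over all genes kept, and was tested on simulated data. A fold change on this scale understates that of low genes. The age difference of wild types was subtracted from that of homozygotes in 1 model over 11747 genes. Sex was read from Y-linked transcripts. Positions are from GENCODE (vM21, mm10), promoters from RefSeq (GRCm38.p6), and 113 of 113 symbols matched, the targeted gene through its RefSeq synonym.

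Named genes are members of fixed lists, always beside the list's count, and the 15 largest differences in each direction among called genes without overlap. These also had at least 5 TPM in the higher group, an RPKM difference of the same sign of at least 1 (log2), and no predicted symbol. For the difference between genotypes, the 10 largest called gaps in each direction were taken, with at least 5 TPM in the highest group and the same sign in RPKM. Some genes that meet these rules are counted in their lists but not reported here by name. Some genes stand on more than 1 list. Members and gene lists were chosen with earlier results of these data known. Alternatives were other scalings, pseudocounts of 0.1 and 5, filters, the RPKM tables, a sex term, males alone, all 24 libraries in the fit, and leaving out each library.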

Additional observations from a re-analysis of the deposited data

Results flagged for a closer look

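In a group of 4 libraries, a value was marked where its gap to the nearest of the other 3 exceeded, as a share of the group's range, Dixon's 95% critical value. This was met in 17 of 292 tests, and chance marks about 1 in 20 groups. HOM-7899 stood above the other old animals in Ifitm3 (931 against 297 to 401 TPM), in Ace (101 against 15.1 to 26.5 TPM), in the mean log2 level of the monocyte list (2.34 against 0.627 to 0.9) and in alignments (46.4 against 40.7 to 41.5 M). It stood below them in the mean level of phagocytic receptors (3.12 against 3.23 to 3.24). HOM-7835 was highest among the old animals in Ctss (10100 against 8340 to 8430 TPM), Lamp2 (225 against 165 to 167 TPM) and Svip (6.8 against 5.01 to 5.19 TPM). HOM-7901 was lowest in Flt1 (15.7 against 24.3 to 25.5 TPM).

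Among the young animals, HOM-8285 stood below the others in Il1a (117 against 143 to 147 TPM), Ctsd (9030 against 11000 to 11300 TPM), Flt1 (3 against 5.55 to 5.97 TPM) and the mean log2 level of immediate early genes (2.45 against 3.15 to 3.28). It stood above them in Hbb-bs (71 against 17 to 21.4 TPM). HOM-8282 was highest in H2-D1 (1040 against 896 to 914 TPM) and in the mean level of oligodendrocyte genes (0.395 against -0.197 to -0.171), and HOM-8286 in alignments (33.8 against 30.6 to 31 M).

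The age difference differed between homozygotes and wild types (limma, adjusted p under 0.05) for 36 of the 107 genes of the text that were tested. Over all genes it was 1187 of 11747 (10.1%). Some of the 107 were named because this same test called them, so the count of 36 was partly fixed in advance. The age difference was higher in homozygotes for 15. Besides the 10 named in the report (Cox8b 3.02, Ttr 2.66, Igfbp2 2.63, Enpp2 2.53, Folr1 2.3, Clic6 2.11, Kl 2.07, Cldn5 1.96, Ltbp4 1.96 and Ly6c1 1.95, all log2) these were Wfdc2 (2.6), Cxcl12 (1.92), Igfbp7 (1.87), Pcp4l1 (1.62) and Flt1 (1.5).

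For 21 genes it was lower in homozygotes. Among microglial and immune genes these were Gpr34 (-1.23), Ccl12 (-1.12), Fabp5 (-1.04), Clec7a (-0.989), P2ry12 (-0.932), Ctss (-0.715), Lamp2 (-0.668), P2ry13 (-0.622), Tlr3 (-0.539), B2m (-0.497), Erap1 (-0.479) and Tlr7 (-0.452). The others were Stmn4 (-2.13), Rpl22l1 (-1.68), Tmsb15l (-1.56), Pex5l (-1.53), Pcp4 (-1.53), Sh3gl3 (-1.49), Ppp1r14a (-1.43), Svip (-1.42) and Hltf (-1.36).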

How the results depend on the processing

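The number of genes called between ages was 8867 with centring on the median over all shared genes and 1957 in males alone, against 5299, and 4254 to 5183 without single libraries. At 2-fold, against 792 genes, it was 524 with quantile normalization, 269 with a pseudocount of 5, 344 with a filter at 5 TPM and 472 in the RPKM tables, and 684 to 876 without single libraries. For the difference between genotypes, against 1187 genes, it was 2082 with no filter on low values and 479 with all 24 libraries in the fit. Without single libraries it was 596 (without HOM-7899) to 1468, with 600 without WT-8322, 702 without HOM-7893 or WT-8323, 747 without HOM-8286 and 781 without WT-7943. The filters change how many genes are tested, and for the other settings the cause was not tested. With centring on all shared genes Trem2 had -0.0545 and Ctss -0.3895. Of 87 named genes called between ages 57 kept direction and call in every setting, and of 32 called between genotypes 7 did. By replicate number, no paired analysis was possible because the table columns carry animal numbers, not the replicate numbers of the labels. No animal number stands at both ages, so the ages were compared between different animals, without pairs.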
